A study of Mus musculus with 16 samples.

Results

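The DNA replication and S-phase genes are 42 genes whose proteins open, copy and repair DNA during S phase: the MCM2-7 helicase and its partners, licensing factors, the PCNA clamp and its loader, replication protein A, polymerases and primase, enzymes that join Okazaki fragments, suppliers of nucleotides and histones, repair and fork factors, and the cyclins E with E2F1. They were taken as a list of gene symbols, by a rule that uses no measured value. All 42 were found by symbol, as 1 feature each, in the table of 26595 features of the CD93 experiment and in that of 36930 features of the drug experiment. All 42 also passed the filter on low values, which kept 13485 and 14005 features.

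RNA of bone marrow cells from mice at postnatal week 8 (C57BL/6 where a strain is labelled) was sequenced in 16 libraries of 6 groups. Naive LSK cells, the lineage-negative, Sca-1-positive and c-Kit-positive fraction that holds the hematopoietic stem cells, came from wild-type (WT, BL/6, 2 libraries) and CD93-/- (KO, 2 libraries) mice. Leukemia stem cells (LSCs) of chronic myeloid leukemia (CML) came from mice that had received WT (3 libraries) or KO (3 libraries) LSK cells carrying BCR-ABL1-GFP, the fusion oncogene of CML with a fluorescent reporter. In a separate experiment WT CML mice were given metoclopramide (MCP, a dopamine receptor antagonist, 10 mg/kg, 3 libraries) or vehicle (Veh, 3 libraries) before LSCs were sorted. Recipients were BL/6 mice that had not been irradiated and so kept their own marrow, and in the KO leukemia Cd93 was deleted in the transplanted cells and not in the host. The labels give neither the gate used for LSCs nor the strain of the KO samples. For the drug samples the title (LSC) and the source field (LSK) disagree, and the title was followed. Whether 2 replicates are 2 animals is not stated, and p-values below may therefore measure technical spread. Values are RPKM, reads scaled by transcript length and by sequencing depth, and 0.003 (CD93 experiment) or 0.001 (drug experiment) is the lowest value of a table and stands for no signal.

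A cell licenses its replication origins in G1, when ORC6, CDC6 and CDT1 load the MCM2-7 ring onto DNA. In S phase CDC45 and the GINS complex turn the ring into an active helicase, primase and the polymerases follow, and PCNA holds the polymerases on DNA. Genes of this group are classic targets of the E2F transcription factors and are silent in resting cells, and most hematopoietic stem cells rest while their progeny divide.

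The libraries differed in how many genes they detected. Features above the lowest value numbered 14279 to 14906 in LSK libraries, 5525 to 7956 in WT LSC, 1230 to 2967 in KO LSC, 19554 to 20014 in Veh and 15587 to 16447 in MCP, and no read counts were used. Cd93, the deleted gene, measured 5.34 and 22.9 RPKM (WT LSK), 1.01 and 2.10 (KO LSK), 0.003, 0.003 and 5.74 (WT LSC) and 0.003, 44.3 and 0.003 (KO LSC), so the second library labelled KO LSC goes against its label. Ly6a (Sca-1) was 529 to 790.4 RPKM in LSK libraries and at most 5.41 in WT and KO LSC, and Kit was 21.4 and 99.3 RPKM (WT LSK), 23.6 and 14.2 (KO LSK), 0.221, 16.8 and 2.63 (WT LSC) and 0.003 throughout (KO LSC). The sum of 9 LSK gate and stem cell markers was 953 to 1999 RPKM (LSK), 17.6 to 102 (WT LSC) and 0.027 to 1.85 (KO LSC), with Procr, Mecom, Hlf, Slamf1 and Esam never above 0.003 in an LSC library of that experiment. The 10 neutrophil markers summed to 1966 to 5626 RPKM (LSK), 63606 to 109521 (WT LSC, 2 to 5 markers at 0.003) and 31522 to 55005 (KO LSC, 5 to 6 at 0.003), and Ly6g and Mmp9 were at 0.003 in each of those LSC libraries. In the drug experiment, normalized separately, Kit was 68.4, 75.8 and 77.5 RPKM (Veh) and 62.6, 74.3 and 62.4 (MCP), Ly6a was 17.8, 14.6 and 23.9 (Veh) and 23.3, 8.43 and 11.2 (MCP), and the neutrophil sum was 185 to 205 and 255 to 365. The other marker sums that also stood apart between LSK and LSC libraries were those of 5 granulocyte-monocyte progenitor genes (2539 to 3663 RPKM in LSK and 16901 to 35634 in LSC), 8 macrophage genes (1886 to 4737 and 11350 to 31410) and 7 erythroid genes (535 to 1009 and 2676 to 4829), all higher in LSC, and of 15 housekeeping genes (24998 to 26393 and 4517 to 9286), lower in LSC. The labelled stem cell type is therefore not borne out by Kit and Ly6a in the LSCs of the CD93 experiment, Ly6a was also low in Veh and MCP, and the LSC libraries of the CD93 experiment are called WT LSC and KO LSC only as their labels do.

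In all LSK, Veh and MCP libraries each of the 42 genes was above the lowest value. WT LSC libraries 1, 2 and 3 listed 6, 15 and 18 of the 42 at 0.003, and KO LSC libraries 29, 33 and 38. Over all tested features the shares at 0.003 were 42.9%, 50.8% and 60.0% (WT LSC) and 78.7%, 83.4% and 91.3% (KO LSC), while those of the replication genes were 14.3%, 35.7% and 42.9%, and 69.0%, 78.6% and 90.5%. Throughout WT LSC 5 genes (Gins1, Gins2, Fen1, Ung and E2f1) were at the lowest value, as were 30.9% of all tested features, and throughout KO LSC 25 genes were, against 70.6% of all. Tbp, a transcription factor that every cell uses, was also at 0.003 in every WT LSC and KO LSC library, so a gene at that value is called listed at the lowest value and not absent.

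**Figure D1:**
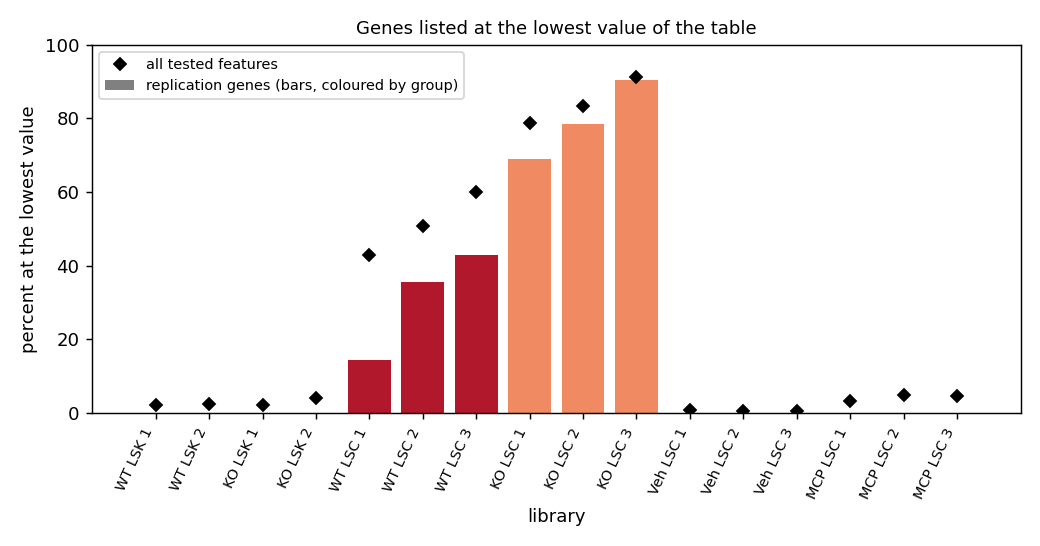
Percent of the 42 replication genes (bars, coloured by group) and of all tested features (diamonds) at the lowest value of the table, by library. The bars are at 0 in the LSK, Veh and MCP libraries, reach 14.3% to 42.9% in WT LSC and 69.0% to 90.5% in KO LSC, and lie below the diamonds in each LSC library of the CD93 experiment.

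In naive LSK cells the group was expressed at a wide range of levels. Rfc2, a subunit of the clamp loader, was the highest at 572 and 529.7 RPKM in WT and 666 and 573 in KO LSK libraries, with no overlap with the next gene in either genotype. Lat2 overlaps exons of Rfc2 on the opposite strand, and reads from the shared bases cannot be told apart. Tipin, a fork protection factor, measured 307 and 309 in WT and 348 and 222 in KO. Ung, which removes uracil from DNA, was the lowest at 5.82 and 4.98 in WT and 7.88 and 3.63 in KO. Ccne1 (cyclin E1) was next, at 5.89 and 8.47 in WT and 11.1 and 6.47 in KO, and overlapped with Ung in KO only. The median levels of the 42 genes had a Spearman correlation of 0.95 across genes between WT and KO LSK libraries, whose values share a table and a gene length for each gene.

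**Figure D2:**
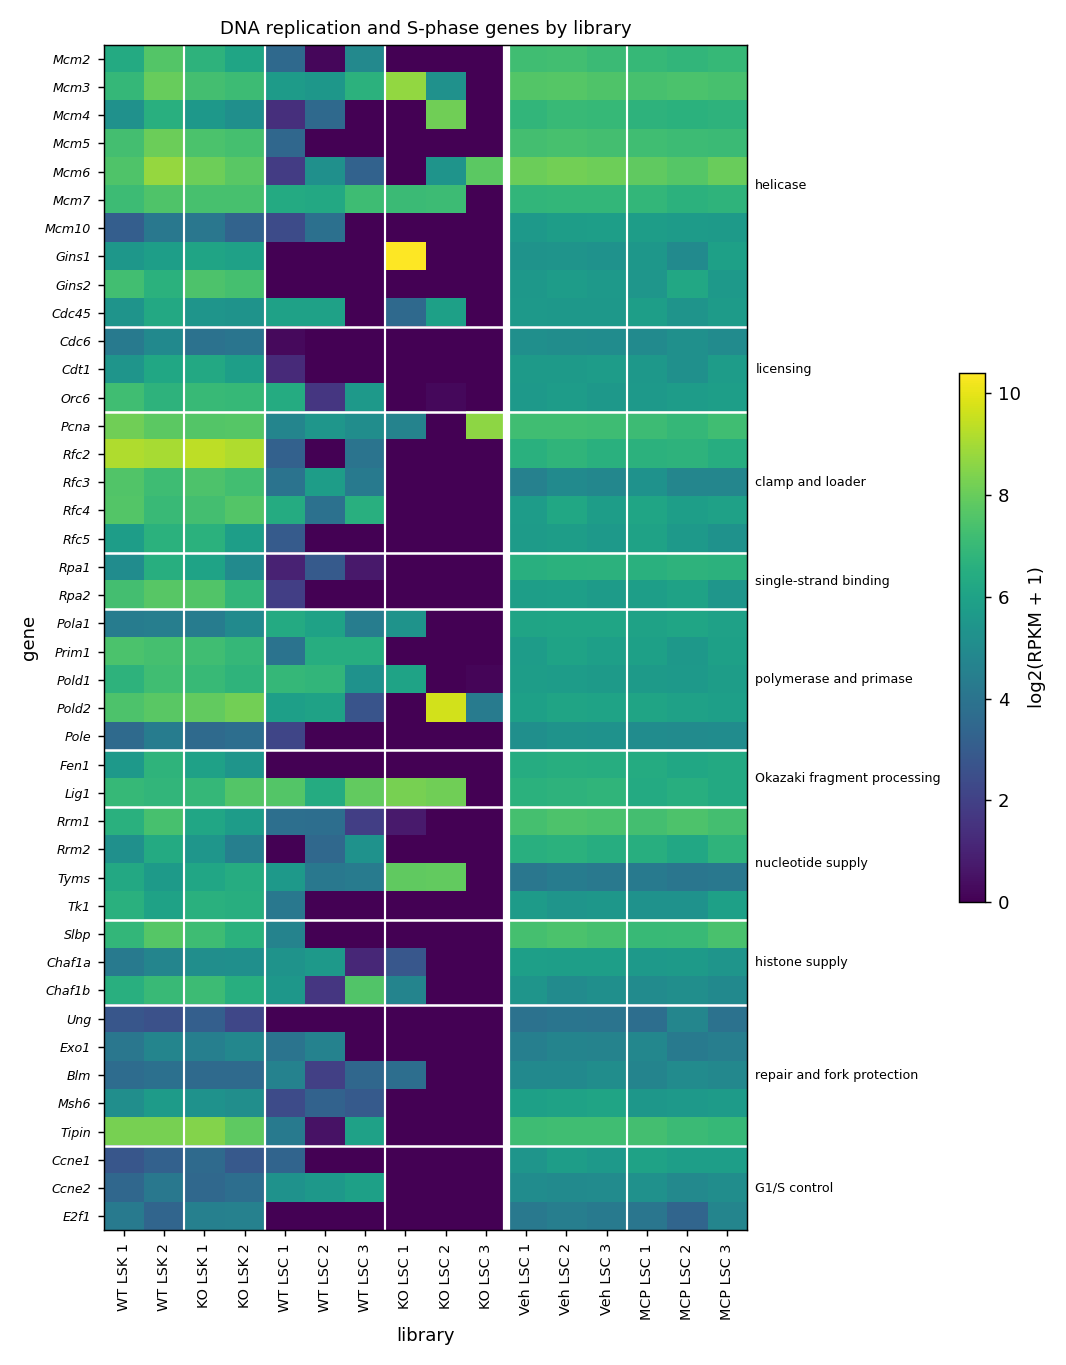
Colour gives log2(RPKM + 1) of the 42 genes (rows, ordered by role, white lines between roles) in the 16 libraries (columns, 2 LSK or 3 LSC libraries per group, with a wide white line between the separately normalized experiments). The LSK, Veh and MCP columns are filled, while the WT LSC columns hold 6, 15 and 18 genes and the KO LSC columns 29, 33 and 38 genes at the lowest value.

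The start sites of these genes were searched for the E2F consensus because the members share this regulator in textbook accounts. Of the 42 genes, 34 had a RefSeq promoter window (GRCm38.p6, 250 bases before to 50 after the start), and 11 of the 34 (32.4%) held one of the letters TTTCCCGC, TTTCGCGC, TTTGCCGC or TTTGGCGC on either strand. Of all 27025 genes with a window, 2.61% held one, and of all 32851 windows 2.26%. The 11 genes were Mcm3, Mcm5, Mcm6, Mcm7, Rfc3, Lig1, Pold1, Cdt1, Cdc6, Msh6 and Pola1. A match is a description of the letters and not a site of binding. Sequence around 3 sets of matches that lie before the start site is shown, 5′ to 3′ along the gene's strand, with the matching letters in capitals, since these genes span the licensed helicase and the first polymerase. The Mcm5 window is chr8:75109317-75109406 (plus strand), where 2 matches on opposite strands overlap. The Mcm6 window is chr1:128359736-128359824 (minus strand) and holds 3 matches, of which 2 overlap. The Pola1 window is chrX:93632245-93632334 (minus strand) and holds 1.
Mcm5: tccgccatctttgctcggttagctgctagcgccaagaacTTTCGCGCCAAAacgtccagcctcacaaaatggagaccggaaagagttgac
Mcm6: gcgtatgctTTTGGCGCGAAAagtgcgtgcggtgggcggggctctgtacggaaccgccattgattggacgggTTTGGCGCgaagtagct
Pola1: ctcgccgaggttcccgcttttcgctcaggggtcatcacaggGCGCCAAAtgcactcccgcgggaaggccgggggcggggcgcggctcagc

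The comparison of LSCs with LSK cells of the same genotype asks how leukemia is accompanied by change in stem cell transcripts. Of the 42 genes, 19 (45.2%) fell and 1, Ccne2, rose in WT LSC against WT LSK (limma on log2(RPKM + 1), adjusted p under 0.05). Of all tested features 42.3% were called lower and 1.45% higher, so in WT the share that fell was near that of all features. In KO LSC against KO LSK 30 (71.4%) fell and 0 rose, where 61.7% of all were called lower and 0.564% higher. The spread behind these tests is shared by all LSK and LSC libraries of the experiment. A group at 0.003 throughout adds no spread, so p-values of genes with such a group can be too small. Uneven values within KO LSC widen the shared spread, so p-values of such genes in WT can be too large. Pcna, at 24.3, 0.003 and 397 RPKM in KO LSC, passed in WT only when the compared groups were fitted alone (limma, adjusted p = 0.0116). The replication genes had a median log2 difference of −2.80 in WT and −4.73 in KO, and all tested features −1.94 and −3.06. When the distributions of the libraries were made equal by quantile normalization, the medians of all features became 0.23 and 0.12. Relative to those medians the replication genes lay 0.86 lower in WT and 1.68 lower in KO, and 1.29 and 1.42 lower after quantile normalization, under which 10 fell and 1 rose in WT and 16 fell in KO. Over all tested features that scaling gave 1351 higher and 1568 lower calls in WT, in place of 196 and 5709, and 2013 higher and 1755 lower in KO, in place of 76 and 8315. In these sorted pools fewer cells of a type and less RNA per cell cannot be told apart, and the part of the neutrophil, progenitor, macrophage, erythroid and housekeeping sums and of the share of features at the lowest value in these differences was not tested. The LSC and LSK groups did not overlap, with LSC lower, for 29 of the 42 genes in WT (56.3% of all tested features) and 31 in KO (75.2%), and with LSC higher for 1 in WT (6.29%) and 0 in KO (1.22%). Where a group is at the lowest value the size of the log2 difference depends on the added 1, medians included, so levels are given beside it. It also depends on the starting level, which was higher for the replication genes. In LSK libraries their median was 64.2 to 98.3 RPKM, against 11.2 to 15.5 over all features above the lowest value. The replication genes were not compared with features of a like starting level.

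Of the 6 subunits of the helicase ring, Mcm2 and Mcm5 passed the test. Mcm2 was 80.4 and 196 RPKM (WT LSK), 106 and 67.4 (KO LSK), 10.9, 0.135 and 28.6 (WT LSC) and 0.003 throughout (KO LSC) (adjusted p = 0.0303 in WT and 0.00294 in KO). Mcm5 was 155 and 270.0 RPKM (WT LSK), 174 and 159.8 (KO LSK), 9.98, 0.003 and 0.003 (WT LSC) and 0.003 throughout (KO LSC) (adjusted p = 0.00117 and 0.000501). These subunits form the gate through which the ring closes around DNA, and both fell in both genotypes. The WT call of Mcm2 was lost without either WT LSK library, with only the compared groups, under quantile normalization, with no filter and with a pseudocount of 0.1 (adjusted p up to 0.181).

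The other ring subunits did not pass in either genotype. Mcm3 was 121 and 251 RPKM (WT LSK), 158 and 138 (KO LSK), 50.8, 44.5 and 102 (WT LSC) and 424, 37.7 and 0.003 (KO LSC), so 1 KO LSC library was above every LSK library and another at the lowest value. Mcm4 was 37.2 and 92.0 RPKM (WT LSK), 45.6 and 35.1 (KO LSK), 1.63, 10.7 and 0.003 (WT LSC) and 0.003, 278 and 0.003 (KO LSC), again with 1 KO LSC library above all 4 LSK libraries. Mcm6 was 185 and 432 RPKM (WT LSK), 274 and 213 (KO LSK), 2.63, 36.4 and 8.63 (WT LSC) and 0.003, 41.0 and 221 (KO LSC). Mcm7 was 140.4 and 182 RPKM (WT LSK), 166 and 164 (KO LSK), 81.8, 75.8 and 143 (WT LSC) and 137, 140.0 and 0.003 (KO LSC). Ap4m1 and Cops6 overlap exons of Mcm7 on the opposite strand, and reads from the shared bases cannot be told apart. Of these 4, Mcm3, Mcm4 and Mcm6 were called lower in KO when KO LSC replicate 1, 2 or 3, in that order, was left out (adjusted p = 0.0442, 0.00637 and 0.0496). With only the compared groups Mcm6 was also called lower in WT (adjusted p = 0.0393). The ring works as a heterohexamer with 1 copy of each subunit. In KO LSC no library had all 6 subunits above the lowest value, where 78.7% to 91.3% of all tested features were at that value. In WT LSC only library 1 had all 6, with Mcm5 at 0.003 in libraries 2 and 3 and Mcm4 in library 3.

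Of the partners that activate the ring, Gins2 fell in both genotypes and Mcm10 in KO. Gins2, a subunit of the GINS complex, was 153 and 98.7 RPKM (WT LSK), 177 and 158 (KO LSK), 0.003 throughout (WT LSC) and 0.003 throughout (KO LSC) (adjusted p = 4.67e-06 and 5.21e-06). Gins1 of the same complex was 43.8 and 56.5 RPKM (WT LSK), 65.8 and 60.9 (KO LSK), 0.003 throughout (WT LSC) and 1349, 0.003 and 0.003 (KO LSC) and did not pass (adjusted p = 0.148 and 0.444). Without KO LSC replicate 1 it was called lower in KO (adjusted p = 7.96e-05), and with only the compared groups in WT (adjusted p = 0.000508). The value of Gins1 in KO LSC library 1 was the highest of any of the 42 genes in any library. Cdc45, the remaining partner, was 40.4 and 77.5 RPKM (WT LSK), 41.9 and 39.9 (KO LSK), 60.4, 60.1 and 0.003 (WT LSC) and 10.9, 59.5 and 0.003 (KO LSC) and did not pass. Mcm10, a replication initiation factor, was 7.58 and 16.8 RPKM (WT LSK), 16.3 and 8.89 (KO LSK), 4.14, 13.3 and 0.003 (WT LSC) and 0.003 throughout (KO LSC) and fell in KO (adjusted p = 0.0121), a call that was lost under quantile normalization and without KO LSK replicate 1.

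Of the 3 licensing factors, Cdc6 and Cdt1 fell in both genotypes. Cdc6 was 18.4 and 29.2 RPKM (WT LSK), 14.0 and 15.5 (KO LSK), 0.187, 0.003 and 0.003 (WT LSC) and 0.003 throughout (KO LSC) (adjusted p = 5.85e-06 and 1.11e-05). Cdt1 was 41.4 and 72.2 RPKM (WT LSK), 75.8 and 56.2 (KO LSK), 1.35, 0.003 and 0.003 (WT LSC) and 0.003 throughout (KO LSC) (adjusted p = 4.99e-05 and 2.71e-05). Both load the ring onto origins, and neither group of LSCs overlapped with its LSK group. Orc6, a subunit of the origin recognition complex, was 147 and 103 RPKM (WT LSK), 128 and 125 (KO LSK), 83.3, 2.13 and 47.4 (WT LSC) and 0.003, 0.172 and 0.003 (KO LSC), and fell in KO (adjusted p = 0.00239) but did not pass in WT (adjusted p = 0.179). Under quantile normalization the KO calls of Cdc6 and Orc6 were lost.

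Pcna, the sliding clamp, was 284 and 216 RPKM (WT LSK), 193 and 202 (KO LSK), 25.9, 43.7 and 33.0 (WT LSC) and 24.3, 0.003 and 397 (KO LSC) and did not pass in either genotype (adjusted p = 0.326 and 0.217). All 3 WT LSC libraries lay below the WT LSK libraries, while KO LSC library 3 was above all 4 LSK libraries. Without that library Pcna was called lower in KO (adjusted p = 0.0186), and with only the compared groups in WT (adjusted p = 0.0116). Pcna has 2 annotated pseudogenes and Tyms 1, whose reads the authors' counting could have split from them. Of the clamp loader subunits, which open the clamp, Rfc2, Rfc3 and Rfc5 fell in both genotypes. Rfc2 was 572 and 529.7 RPKM (WT LSK), 666 and 573 (KO LSK), 8.32, 0.003 and 15.0 (WT LSC) and 0.003 throughout (KO LSC) (adjusted p = 0.00169 and 0.000239). Rfc5 was 54.0 and 97.8 RPKM (WT LSK), 99.8 and 56.1 (KO LSK), 6.98, 0.003 and 0.003 (WT LSC) and 0.003 throughout (KO LSC) (adjusted p = 0.00208 and 0.000636). Both calls held under every alternative run for either gene. Rfc3 was 187 and 141 RPKM (WT LSK), 179 and 149.5 (KO LSK), 14.5, 54.2 and 18.7 (WT LSC) and 0.003 throughout (KO LSC) (adjusted p = 0.0184 and 7.48e-05), and its WT call was lost under 6 of 12 alternatives, among them leaving out either WT LSK library (adjusted p up to 0.264). Rfc4 was 196 and 131 RPKM (WT LSK), 157 and 195 (KO LSK), 84.0, 13.7 and 94.7 (WT LSC) and 0.003 throughout (KO LSC) and fell in KO (adjusted p = 0.000266) but did not pass in WT (adjusted p = 0.182).

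Replication protein A, which coats single-stranded DNA, fell in both genotypes. Rpa1, its large subunit, was 31.8 and 89.5 RPKM (WT LSK), 64.1 and 30.6 (KO LSK), 1.02, 6.72 and 0.649 (WT LSC) and 0.003 throughout (KO LSC) (adjusted p = 0.00267 and 0.000514). Rpa2 was 156 and 205 RPKM (WT LSK), 187 and 115 (KO LSK), 2.79, 0.003 and 0.003 (WT LSC) and 0.003 throughout (KO LSC) (adjusted p = 7.55e-05 and 5.59e-05). The WT call of Rpa1 was lost under quantile normalization (adjusted p = 0.221).

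Of the polymerase and primase subunits, Pole fell in both genotypes and Prim1 and Pold1 in KO. Pole, the catalytic subunit of the leading-strand polymerase epsilon, was 11.2 and 19.5 RPKM (WT LSK), 11.2 and 12.6 (KO LSK), 3.45, 0.003 and 0.003 (WT LSC) and 0.003 throughout (KO LSC) and fell in both (adjusted p = 0.00373 and 0.00158), with both calls lost under quantile normalization. Prim1, the catalytic subunit of primase, was 173 and 160.0 RPKM (WT LSK), 148 and 122 (KO LSK), 14.5, 88.0 and 88.3 (WT LSC) and 0.003 throughout (KO LSC) and fell in KO (adjusted p = 0.000291) but did not pass in WT (adjusted p = 0.159). Pola1, the catalytic subunit of polymerase alpha, was 19.6 and 20.5 RPKM (WT LSK), 19.8 and 30.4 (KO LSK), 80.7, 62.0 and 20.3 (WT LSC) and 39.3, 0.003 and 0.003 (KO LSC), with 2 WT LSC libraries and 1 KO LSC library above all 4 LSK libraries, and did not pass. Pold1, the catalytic subunit of polymerase delta, was 104 and 147 RPKM (WT LSK), 128 and 108 (KO LSK), 122, 113 and 38.1 (WT LSC) and 64.8, 0.003 and 0.111 (KO LSC), passed in KO (adjusted p = 0.0453) and lost that call under 10 of 12 alternatives, among them leaving out any of KO LSC replicates 2 and 3 or either KO LSK library. Pold2, its accessory subunit, was 178 and 212 RPKM (WT LSK), 236 and 292 (KO LSK), 57.2, 63.5 and 5.47 (WT LSC) and 0.003, 822 and 18.9 (KO LSC) and did not pass.

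Fen1, which trims the flaps of Okazaki fragments, fell in both genotypes, and Lig1, the ligase that seals the fragments, passed in neither. Fen1 was 48.5 and 107 RPKM (WT LSK), 60.3 and 42.1 (KO LSK), 0.003 throughout (WT LSC) and 0.003 throughout (KO LSC) (adjusted p = 8.41e-06 and 1.38e-05), a call that held under every alternative run. Lig1 was 123 and 115 RPKM (WT LSK), 120.0 and 193 (KO LSK), 193, 83.8 and 236 (WT LSC) and 307, 284 and 0.003 (KO LSC), and in WT it differed by 0.39 on the log2 scale (SE 2.33, adjusted p = 0.918). Lig1 had the highest median of the 42 genes in WT LSC and in KO LSC, although KO LSC library 3 listed it at the lowest value.

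Among genes of nucleotide supply, Rrm1 and Tk1 fell in both genotypes and Rrm2 in KO. Ribonucleotide reductase, which makes deoxynucleotides, is built from a large and a small subunit. Rrm1, the large subunit, was 95.4 and 164 RPKM (WT LSK), 71.2 and 53.4 (KO LSK), 13.1, 12.6 and 2.85 (WT LSC) and 0.699, 0.003 and 0.003 (KO LSC) and fell in both genotypes (adjusted p = 0.00348 and 0.000317), with both calls lost with library weights and under quantile normalization. Rrm2, the small subunit, was 36.1 and 80.0 RPKM (WT LSK), 42.6 and 21.4 (KO LSK), 0.003, 10.3 and 37.9 (WT LSC) and 0.003 throughout (KO LSC) and fell in KO (adjusted p = 0.0135), a call lost under quantile normalization and without KO LSK replicate 1. Tk1, the thymidine kinase of S phase, was 95.9 and 62.9 RPKM (WT LSK), 94.8 and 89.6 (KO LSK), 17.1, 0.003 and 0.003 (WT LSC) and 0.003 throughout (KO LSC) and fell in both (adjusted p = 0.0106 and 0.00197), with the WT call lost under quantile normalization, with only the compared groups and without either WT LSK library (adjusted p up to 0.0718). Tyms, thymidylate synthase, was 76.4 and 49.3 RPKM (WT LSK), 69.5 and 84.7 (KO LSK), 46.3, 16.8 and 18.8 (WT LSC) and 231, 235 and 0.003 (KO LSC), so that KO LSC libraries 1 and 2 were above all 4 LSK libraries and library 3 at the lowest value, and it did not pass.

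Of the genes that supply histones to new DNA, Slbp fell in both genotypes. Slbp, which binds histone messenger RNA, was 117 and 199.9 RPKM (WT LSK), 141 and 98.9 (KO LSK), 23.9, 0.003 and 0.003 (WT LSC) and 0.003 throughout (KO LSC) (adjusted p = 0.00871 and 0.00266). Its WT call was lost with only the compared groups and without WT LSK replicate 2 (adjusted p up to 0.067). Chaf1a and Chaf1b, subunits of the chromatin assembly factor, passed in KO only by a narrow margin (adjusted p = 0.0349 and 0.0486). These calls were lost under 8 and 10 of 12 alternatives, among them leaving out either KO LSK library or KO LSC replicate 2 or 3. Chaf1a was 17.9 and 25.4 RPKM (WT LSK), 34.0 and 35.1 (KO LSK), 39.6, 47.1 and 1.24 (WT LSC) and 5.98, 0.003 and 0.003 (KO LSC). Chaf1b was 92.9 and 131 RPKM (WT LSK), 139 and 89.8 (KO LSK), 44.3, 2.12 and 191 (WT LSC) and 24.7, 0.003 and 0.003 (KO LSC), with WT LSC library 3 above all LSK libraries.

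Among the repair and fork factors Msh6, Tipin and Ung fell in both genotypes. Msh6, a mismatch recognition protein, was 34.7 and 51.4 RPKM (WT LSK), 38.6 and 33.9 (KO LSK), 4.21, 8.51 and 6.66 (WT LSC) and 0.003 throughout (KO LSC) (adjusted p = 0.00191 and 3.46e-05), and its WT call was lost under quantile normalization. Tipin was 307 and 309 RPKM (WT LSK), 348 and 222 (KO LSK), 18.2, 0.436 and 61.2 (WT LSC) and 0.003 throughout (KO LSC) (adjusted p = 0.0284 and 0.0016), and its WT call was lost under 6 of 12 alternatives, among them leaving out either WT LSK library (adjusted p up to 0.122). Ung was 5.82 and 4.98 RPKM (WT LSK), 7.88 and 3.63 (KO LSK), 0.003 throughout (WT LSC) and 0.003 throughout (KO LSC) (adjusted p = 0.000102 and 9.66e-05), and with quantile normalization neither call held and the KO difference took the opposite sign. Exo1, an exonuclease of mismatch repair, was 16.3 and 25.8 RPKM (WT LSK), 21.4 and 27.2 (KO LSK), 14.8, 23.7 and 0.003 (WT LSC) and 0.003 throughout (KO LSC) and fell in KO (adjusted p = 0.0116), a call lost under quantile normalization and without either KO LSK library. Blm, the Bloom syndrome helicase, was 11.7 and 13.4 RPKM (WT LSK), 11.0 and 11.2 (KO LSK), 23.6, 2.92 and 10.1 (WT LSC) and 12.5, 0.003 and 0.003 (KO LSC) and did not pass.

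The genes of the G1/S switch gave the 1 rise. Ccne2 encodes cyclin E2, which with CDK2 starts S phase. Ccne2 was 10.2 and 16.8 RPKM (WT LSK), 10.3 and 12.5 (KO LSK), 38.4, 45.4 and 59.7 (WT LSC) and 0.003 throughout (KO LSC). The WT libraries gave a log2 difference of 1.77 with an SE of 0.46 (adjusted p = 0.0144), and in KO the gene fell (adjusted p = 0.00028). Ccne2 was the 1 gene of the 42 whose LSC and LSK groups did not overlap in opposite directions in WT and KO. The WT rise did not pass with library weights, with only the compared groups, with a replicate block or without WT LSK replicate 1, the highest adjusted p being 0.0728, and the KO fall did not pass after quantile normalization. Ints8 overlaps exons of Ccne2 on the opposite strand, and the kit does not mark strand, so reads from the shared bases cannot be told apart. Ints8 was 17.0 and 34.8 RPKM (WT LSK), 17.5 and 18.5 (KO LSK), 16.9, 12.7 and 7.12 (WT LSC) and 0.003 throughout (KO LSC). Such an overlap with a gene on the other strand holds for 15 of the 42 genes. They are Mcm7, Gins2, Cdc45, Orc6, Rfc2, Rfc4, Rfc5, Pole, Fen1, Lig1, Tk1, Slbp, Chaf1a, Msh6 and Ccne2.

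Ccne1, which encodes cyclin E1, was 5.89 and 8.47 RPKM (WT LSK), 11.1 and 6.47 (KO LSK), 9.23, 0.003 and 0.003 (WT LSC) and 0.003 throughout (KO LSC). It passed as lower in KO (adjusted p = 0.0178), but this call was lost with no filter and without either KO LSK library, and after quantile normalization the difference had the opposite sign. E2f1, the transcription factor that drives many of these genes, was 18.0 and 9.40 RPKM (WT LSK), 21.8 and 22.5 (KO LSK), 0.003 throughout (WT LSC) and 0.003 throughout (KO LSC) (adjusted p = 1.81e-05 and 8.56e-06), with both calls lost under quantile normalization.

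Genes outside the list with a role in replication were counted the same way. Of 55 tested, 17 fell (30.9%, against 42.3% of all tested features) and 1 rose in WT, and 36 fell in KO (65.5%, against 61.7%). Their medians were −1.81 and −3.42, against −1.94 and −3.06 over all features. In WT the share called lower and the size of the median were thus below those of all features. Asf1b, a histone chaperone, had the smallest p of these in both genotypes, at 49.2 and 71.6 RPKM (WT LSK), 36.5 and 26.7 (KO LSK), 0.003 throughout (WT LSC) and 0.003 throughout (KO LSC) (adjusted p = 4.52e-06 and 7.28e-06). Prim2, the large subunit of primase, and Wdhd1, which links helicase to polymerase, also fell in both genotypes (adjusted p = 2.38e-05 and 1.26e-05, 5.16e-05 and 9.59e-05). Under quantile normalization 4 of the 55 rose and 3 fell in WT, and 1 rose and 8 fell in KO.

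KO and WT LSCs were compared to ask what loss of CD93 does in leukemic cells. Of the 42 genes 6 were lower in KO LSC (Ccne2, Rfc3, Rfc4, Prim1, Msh6 and Rrm1) and 0 higher, against 8.74% of all tested features called lower and 0.0742% higher. Ccne2, Rfc3, Rfc4, Prim1 and Msh6 were at 0.003 throughout KO LSC and above it throughout WT LSC. The replication genes had a median log2 difference of −1.55 and all tested features −0.77, and after quantile normalization the medians were −0.50 and 0.02. Over all features that scaling gave 562 higher and 745 lower calls, in place of 10 and 1178.

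Ccne2 had the smallest adjusted p of the 6 at 0.000498, with 38.4, 45.4 and 59.7 RPKM in WT LSC. The clamp loader gave 2 of the 6, Rfc3 at 14.5, 54.2 and 18.7 RPKM in WT LSC (adjusted p = 0.00279) and Rfc4 at 84.0, 13.7 and 94.7 (adjusted p = 0.00378). Eif4a2, which overlaps Rfc4 on the opposite strand, was 29.0, 0.003 and 0.003 in WT LSC, and reads from the shared bases cannot be told apart. Prim1 was 14.5, 88.0 and 88.3 in WT LSC (adjusted p = 0.00315) and Msh6 4.21, 8.51 and 6.66 (adjusted p = 0.00287). Fbxo11, which overlaps Msh6 on the opposite strand, was 3.36, 8.63 and 12.5 (WT LSC) against 0.003 in all 3 KO LSC libraries. Rrm1 differed from the other 5 in being above the lowest value in 1 KO LSC library, at 13.1, 12.6 and 2.85 (WT LSC) against 0.699, 0.003 and 0.003 (KO LSC), adjusted p = 0.0311.

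Ccne2, Rfc4 and Prim1 passed under each of 13 alternatives, Rfc3 and Msh6 under each but quantile normalization (adjusted p = 0.0517 and 0.0707), and Rrm1 under 5. Leaving out KO LSC replicate 2 or 3, or WT LSC replicate 1 or 2, was enough to lose the call of Rrm1. The groups of Mcm2, Orc6, Tipin and Rpa1 also did not overlap and were lower in KO LSC, which makes 10 of 42 against 14.1% of all tested features, but these did not pass (adjusted p of 0.0588 for Orc6 and 0.188 to 0.254 for the others). Without KO LSC replicate 3, Tyms was called higher in KO LSC (log2 difference 3.20, adjusted p = 0.0412). The neutrophil marker sum was lower and the share of features at the lowest value higher in every KO than in every WT LSC library. The sum of 9 LSK gate and stem cell markers was also lower, at 0.027 to 1.85 RPKM (KO LSC) against 17.6 to 102 (WT LSC). The part of these in the differences was not tested. Kit was at the lowest value throughout KO LSC and above it throughout WT LSC, but did not pass (log2 difference −2.10, SE 0.98, adjusted p = 0.28).

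**Figure D3:**
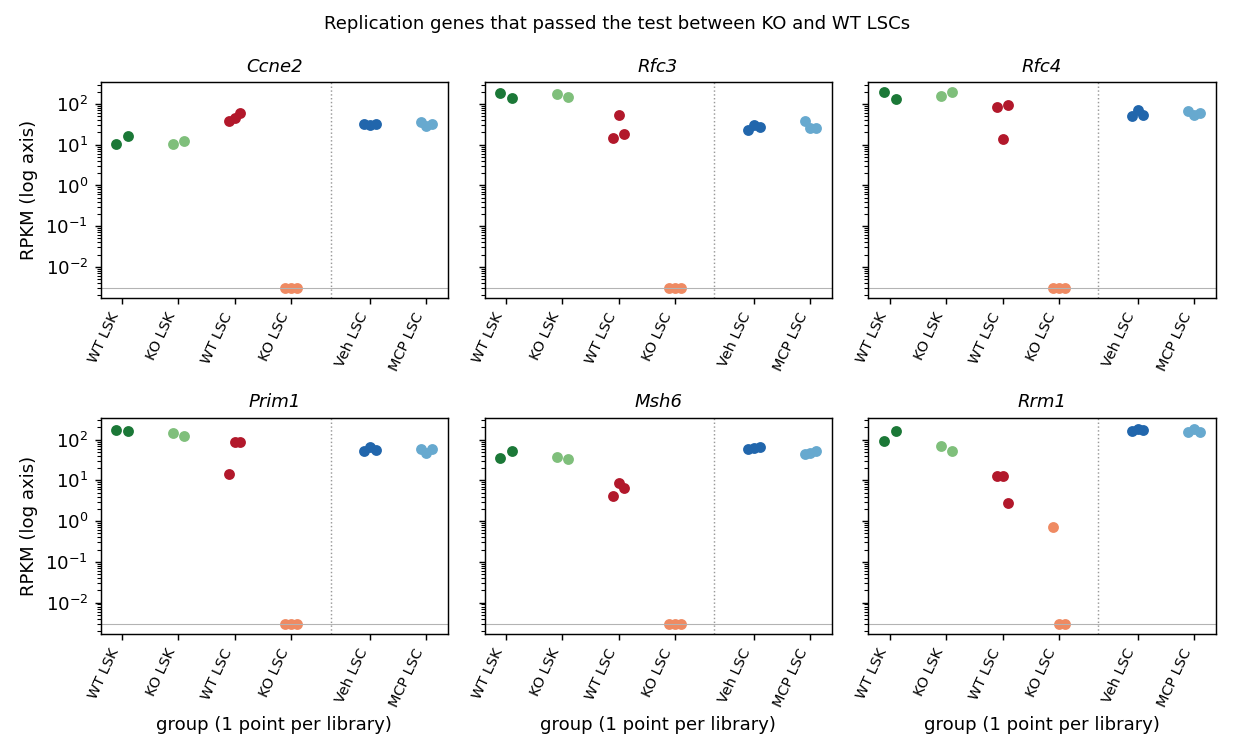
RPKM (log axis, 1 point per library) of the 6 replication genes that passed between KO and WT LSCs, in the 4 groups of the CD93 experiment and, right of the dotted line, the 2 groups of the separately normalized drug experiment. The grey line is 0.003, where all KO LSC points lie except 1 of Rrm1, at 0.699.

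By a test of the difference between the leukemia effects, 3 of the 42 genes, Ccne2, Rfc3 and Rfc4, had a leukemia effect that was lower in KO than in WT and 0 one that was higher, against 5.15% of all tested features called lower and 0.934% higher in that test. Under quantile normalization and with a replicate block 0 of the 42 were called, and the calls of Rfc3 and Rfc4 were lost under 9 and 11 of 16 alternatives, leaving out any LSK library among them.

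Signal in the KO LSC libraries was patchy where it was present. Of 126 values (42 genes in 3 libraries), 26 were above the lowest value, and of these 10 were above all 4 LSK libraries, 13 below all 4 and 3 within their range. In WT LSC 87 of 126 were above the lowest value, with 10 above all 4 LSK libraries, 66 below and 11 within. Throughout KO LSC 0 of the 42 genes stayed above the lowest value, and throughout WT LSC 22 did. Over all features above the lowest value, the library median was 65.4 to 144 RPKM in KO LSC and 16.4 to 31.7 in WT LSC. It was 11.2 to 15.5 RPKM in LSK libraries. The same counts over all tested features are not given, so these counts are not read as particular to the replication genes. The summed level of the 42 genes was 0.238%, 0.140% and 0.0516% of all RPKM in KO LSC libraries 1 to 3, 0.0976%, 0.0810% and 0.113% in WT LSC, 0.353% and 0.520% in WT LSK and 0.413% and 0.326% in KO LSK. Gins1 alone gave 1349 of the 2632 RPKM in KO LSC library 1.

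Of the other replication genes 10 of 55 (18.2%) were lower in KO LSC and 0 higher, with a median of −1.45, against 8.74% and −0.77 over all tested features. Clspn (claspin, which relays fork stalling to the checkpoint) was 69.5, 41.3 and 38.9 RPKM (WT LSC) against 0.843, 0.003 and 0.003 (KO LSC), with an adjusted p of 0.000556. Pole2, a subunit of polymerase epsilon, was 60.3, 30.0 and 58.0 RPKM (WT LSC) against 0.003 in all 3 KO LSC libraries (adjusted p = 0.000556). Atad2 and Ticrr passed as well (adjusted p = 0.000783 and 0.00244). Under quantile normalization 2 of the 55 (3.64%) were called lower, against 5.52% of all.

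Naive KO and WT LSK cells were compared to ask what loss of CD93 does without leukemia. None of the 42 genes passed (limma, 0 of 42, also 0 at an unadjusted p under 0.05, and 1 at that level when only the 4 LSK libraries were fitted), where 1.02% of all tested features were called lower and 0.816% higher. The median log2 difference was −0.04 over the replication genes and −0.11 over all features. The groups did not overlap for 5 genes lower in KO (Pcna, Cdc6, Rrm1, Prim1 and Blm; 20.5% of all features) and 6 higher (E2f1, Rfc2, Gins1, Gins2, Chaf1a and Pold2; 14% of all). Rrm1 had the lowest difference, 95.4 and 164 RPKM in WT against 71.2 and 53.4 in KO (log2 difference −1.01, SE 0.81), and E2f1 the highest, 18.0 and 9.40 against 21.8 and 22.5 (log2 difference 0.72, SE 0.32). Without WT LSK replicate 1, E2f1 was the 1 gene called, as higher in KO (log2 difference 1.16, adjusted p = 0.0203). The spread behind these tests is shared with the LSC libraries, in which many genes lie at the lowest value and others vary widely. Pcna, at 24.3, 0.003 and 397 RPKM in KO LSC, had an SE of 2.33 between the LSK genotypes.

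The 2 WT LSK libraries differed from each other in these genes. Library 2 was higher than library 1 for 30 of the 42. Mcm2 was 80.4 and 196, Mcm4 37.2 and 92.0 and Mcm6 185 and 432 in libraries 1 and 2, which is a ratio of 2.44, 2.48 and 2.33. Rpa1 had the highest ratio, 2.81, and E2f1 the lowest, 0.523. The log2 ratio had a Spearman correlation of 0.40 with the length of the longest coding transcript across the 42 genes and of 0.31 across 9861 genes, which share the same pair of libraries. Between the 2 KO LSK libraries 13 of the 42 genes were higher in library 2, and the correlations were 0.13 and −0.10.

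**Figure D4:**
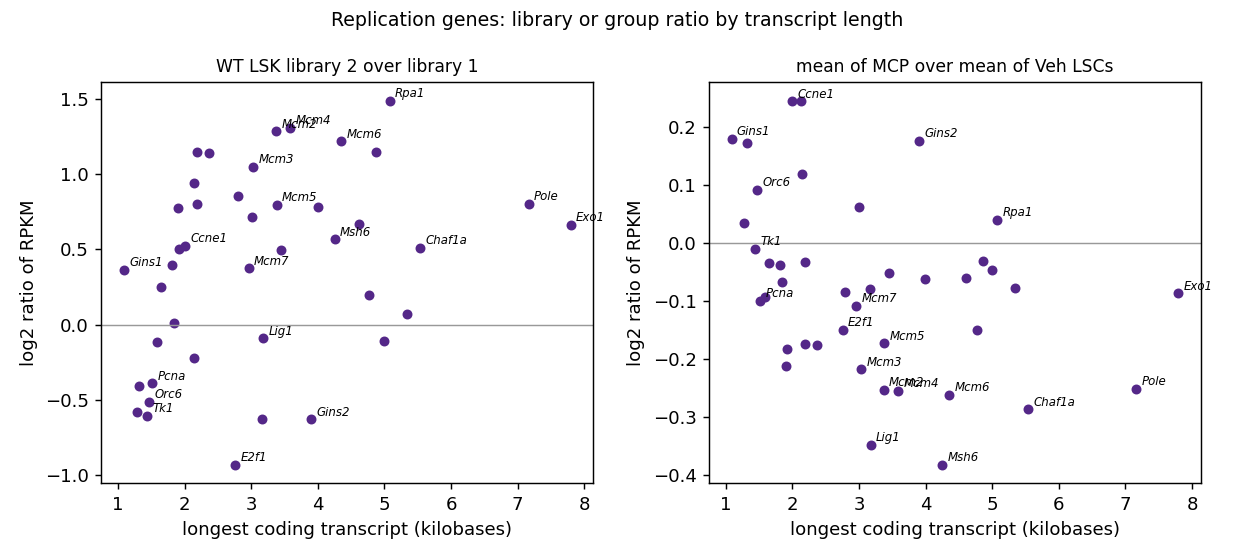
Log2 ratio of RPKM (vertical) against the length of the longest coding transcript in kilobases (horizontal) for the 42 genes, on the left for WT LSK library 2 over library 1 and on the right for the mean of MCP over the mean of Veh LSCs. Longer transcripts lie higher on the left (Spearman 0.40) and lower on the right (Spearman −0.38), on vertical axes of different range.

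Metoclopramide and vehicle were compared in LSCs to ask what the drug does to the cells in vivo. None of the 42 genes passed (limma, 0 of 42, with 9 at an unadjusted p under 0.05), where 1.8% of all tested features were called lower and 0.521% higher. The lowest adjusted p was 0.0754, for Lig1. The median log2 difference was −0.07 over the replication genes and −0.18 over all features, and after quantile normalization −0.00 for both, with 32 of the 42 differences negative before and 22 after. The groups did not overlap for 10 genes lower in MCP (Fen1, Lig1, Mcm2, Mcm3, Mcm4, Mcm5, Mcm6, Chaf1a, Pole and Msh6), that is 23.8%, against 25.6% of all features, and for 1 gene higher, Ccne1, against 4.91%.

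The helicase ring held 5 of the 10, none of which passed. The 10 are no larger a share of the replication genes than the 25.6% of all tested features. Mcm2 was 145, 149 and 136 RPKM (Veh) against 124, 114 and 123 (MCP; log2 difference −0.25, SE 0.07, adjusted p = 0.111). Mcm3 was 197, 203 and 185 RPKM (Veh) against 165, 173 and 165 (MCP; −0.22, SE 0.07, adjusted p = 0.122). Mcm4 was 114, 128 and 122 against 106, 97.4 and 103 (−0.25, SE 0.08, adjusted p = 0.117). In each of these 3 every MCP library was below every Veh library. Mcm5 was 154, 166 and 154 against 148, 138 and 134 (−0.17, SE 0.07, adjusted p = 0.213). Mcm6, the highest of the 42 in both groups, was 269.8, 294 and 273 against 234, 204 and 261 (−0.27, SE 0.10, adjusted p = 0.169). Mcm7 was 115, 119 and 118 against 116, 102 and 108, and its groups overlapped.

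Lig1 was 99.9, 105 and 112 RPKM (Veh) against 80.6, 89.5 and 79.0 (MCP; log2 difference −0.34, SE 0.08), and Fen1 86.3, 89.5 and 88.1 against 82.6, 73.0 and 78.0 (−0.18, SE 0.08). Both process Okazaki fragments, and neither passed. Msh6 was 58.4, 63.2 and 65.4 RPKM (Veh) against 44.5, 47.2 and 51.7 (MCP), the lowest difference of the 42 (−0.38, SE 0.09, adjusted p = 0.0796). Ccne1 was 42.5, 53.8 and 49.0 RPKM (Veh) against 62.0, 55.1 and 55.2 (MCP), the highest difference (0.25, SE 0.11, adjusted p = 0.241). Pcna was 149, 146 and 143 RPKM (Veh) against 140.2, 122 and 147 (MCP), with overlapping groups. The log2 ratio of MCP to Veh had a Spearman correlation of −0.38 with transcript length across the 42 genes and of −0.37 across 9469 genes. MCP libraries also detected fewer features (15587 to 16447 against 19554 to 20014), and the part of this in the differences was not tested.

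**Figure D5:**
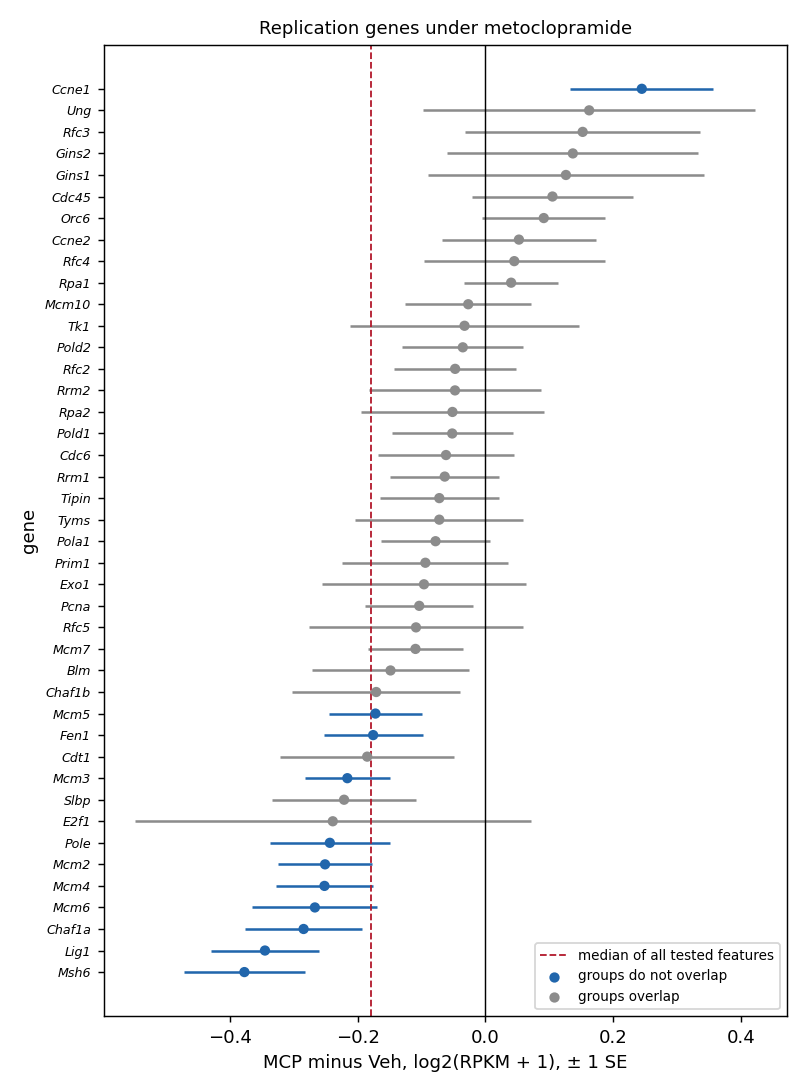
Log2 difference of MCP minus Veh on the log2(RPKM + 1) scale, with bars of 1 SE (3 libraries per group), for the 42 genes in order. Blue marks genes whose groups did not overlap, and the dashed line is the median of all tested features at −0.18; the differences run from −0.38 for Msh6 to 0.25 for Ccne1.

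Of 56 other replication genes 3 fell with the drug (5.36%) and 0 rose, with a median of −0.17, against 1.8% called lower, 0.521% higher and a median of −0.18 over all tested features. Dnmt1, the maintenance DNA methyltransferase of the fork, was 186, 199 and 188 RPKM (Veh) against 143, 145 and 144 (MCP; log2 difference −0.40, SE 0.06, adjusted p = 0.0296). E2f7, a repressor of E2F targets, was 11.1, 11.4 and 14.8 against 6.00, 5.83 and 4.89 (−1.02, SE 0.19, adjusted p = 0.0423). Supt16, a subunit of the histone chaperone FACT, was 237, 258 and 242 against 195, 194 and 177 (−0.38, SE 0.07, adjusted p = 0.044). Under quantile normalization 1 of the 56 rose and 2 fell.

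Replicates of the drug experiment were close in these genes. The median SD of log2(RPKM + 1) over the 42 genes was 0.08 in Veh and 0.13 in MCP, against 0.13 and 0.28 over all tested features. In WT LSC it was 1.29 against 0.80. The 4 genes that no LSC library of the CD93 experiment lifted above the lowest value were all measured in Veh LSCs, with Gins2 at 48.6 ± 4.17 RPKM, Fen1 at 88.0 ± 1.62, E2f1 at 19.0 ± 1.73 and Ung at 14.9 ± 0.844 (mean ± SD, n = 3). The tables were normalized separately, so these levels are set side by side and not tested. The Spearman correlation of the median levels across the 42 genes was 0.97 between Veh and MCP, 0.63 between WT LSK and Veh, and 0.17 between WT LSC and Veh, the 2 groups labelled as LSCs of WT leukemia without the drug. Rfc2, the highest gene in LSK libraries, was 101 ± 7.11 in Veh, and Mcm6, Mcm3 and Rrm1 were the highest there at 279 ± 13.1, 195 ± 9.26 and 170.4 ± 8.82, with no overlap between Mcm6 and Mcm3 or between Mcm3 and Rrm1.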

How the data were processed

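Per the labels' protocols, RNA of sorted mouse bone marrow cells was made into libraries by SMART-Seq v4. The authors deposited RPKM values per gene, a unit inferred from the values, on GRCm38 (mm10) per the submitters' processing notes; no aligner, counter or annotation is named there or in the labels. Values were analysed as log2(RPKM + 1) with limma 3.58.1 (R 4.3.3), an intensity trend and 1 mean per group, over features at 1 RPKM or more in at least 2 libraries. All 10 CD93 libraries entered 1 model and the 6 drug libraries another. Tests were two-sided, with Benjamini-Hochberg adjustment over all tested features and a threshold of 0.05. The members and lists were chosen with earlier results of these data known. One marker gene of the stem cell list is not reported here. Per-library values are given for Pcna, Mcm2 to Mcm7 and members that passed, and of each other list up to 4 genes with the smallest p are named; further members named with values were chosen after their values were seen. Alternatives were quantile normalization, no filter, a mean of at least 5 RPKM, a pseudocount of 0.1, library weights, only the compared groups, a replicate block and leaving out each library; a crossed block was added after seeing the data. The fit was also run on simulated data, and the result of that run is not given here. In the LSC libraries of the CD93 experiment 42.9% to 91.3% of tested features were at the lowest value. No conclusion about the LSC comparisons is drawn from the simulated data. Overlapping exons and transcript lengths are from GENCODE M21, promoters from RefSeq (GRCm38.p6).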

Additional observations from a re-analysis of the deposited data

Results flagged for a closer look

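For 3 of the 42 genes the change from LSK to LSC differed between KO and WT by a test of the difference itself, against 5.15% of all tested features called lower and 0.934% called higher in that test. The KO change minus the WT change was −5.39 (SE 0.65, adjusted p = 0.00802) for Ccne2, −4.69 (SE 1.03, adjusted p = 0.0387) for Rfc3 and −5.74 (SE 1.32, adjusted p = 0.0459) for Rfc4, on the log2(RPKM + 1) scale. All 3 were listed at 0.003 in every KO LSC library, so these sizes depend on the added 1. Ccne2 lost the call under quantile normalization and with a replicate block (adjusted p up to 0.0668). Rfc3 lost it under 9 of 16 alternatives, among them leaving out any LSK library or KO LSC replicate 2 or 3, and Rfc4 under 11 of 16, among them leaving out any LSK library, any KO LSC library or WT LSC replicate 1.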

How the results depend on the processing

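Quantile normalization left 11 of the 42 genes called in WT LSC against WT LSK (20 without it), 16 in KO LSC against KO LSK (30), 3 in KO against WT LSC (6) and 0 for the difference between the leukemia effects (3). It also reversed the KO leukemia difference of Ccne1 (0.10) and Ung (0.33), and the cause was not tested. Beside those named above, leaving out 1 LSC library gained lower calls in the leukemia comparisons. In WT these were Ccne1, Mcm10 and Rrm2 without WT LSC replicate 1, 2 and 3 (adjusted p = 0.000142, 0.03995 and 0.0216). In KO they were Blm and Pola1 without KO LSC replicate 1 (0.00838 and 0.00202) and Pold2 without replicate 2 (0.0218). For the difference between the effects, 1 gene was called with library weights and 5 each with a mean of at least 5 RPKM, with no filter and with a pseudocount of 0.1. Leaving out 1 library at a time gave 15 to 21 genes for leukemia in WT, 23 to 34 in KO, 5 to 9 for genotype in LSCs, 0 to 1 in LSK cells, 0 for the drug and 1 to 7 for the difference between the effects; for that difference the lowest count came without KO LSC replicate 2 or 3, either KO LSK library or WT LSK replicate 2, and the highest without WT LSC replicate 2. For genotype in LSK cells the 1 call came without WT LSK replicate 1, and for genotype in LSCs the calls without KO LSC replicate 3 were 5 lower and 1, Tyms, higher. Where such a fit left 1 LSK library in a group, that library was assumed to vary like the other groups. The labels do not say whether replicate numbers pair the samples. Deviations of same-numbered libraries correlated at −0.28 in LSK, where libraries of different number mirror this at 0.28. The values were −0.02 to 0.00 in WT and KO LSC and −0.01 to 0.01 in Veh and MCP. With so few libraries per group they cannot settle whether the numbers pair. With the number as a block, 0 of the 42 genes were called for the difference between the effects and 5 for genotype in LSC. With the numbers of the LSK libraries crossed, 0 of the 42 were called for genotype in LSK, as with the numbers as given. The files were used without read counts, and genes at the lowest value cannot be told from undetected ones.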

Other observations

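Genes of mitosis and of the G1 brake were read beside the replication genes. Of 20 mitosis genes 5 fell in WT LSC against WT LSK, 11 in KO LSC against KO LSK, 3 in KO against WT LSC and 0 with metoclopramide, and none rose. These are 25%, 55% and 15% of the list, against 42.3%, 61.7% and 8.74% of all tested features called lower, so in both leukemia comparisons the share was below that of all features. Kif20a, a kinesin of cytokinesis, and Aurka, the spindle kinase, fell in both genotypes (adjusted p = 1.98e-05 and 3.08e-05, 0.000151 and 0.000237). Kif11, the spindle kinesin, Nusap1 and Top2a, the topoisomerase of chromosome condensation, were the 3 lower in KO than in WT LSCs (adjusted p = 0.000863, 0.00181 and 0.00443). Under quantile normalization 1 of the 20 rose and 2 fell in WT, and 3 fell in KO.

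The list of 14 G0 and G1 brake genes holds genes that keep cells out of S phase. It also holds Ccnd1, Ccnd2, Ccnd3, Cdk4 and Cdk6, which release that brake. Of the 14 genes, 12 fell in WT and 14 in KO LSCs against LSK cells. That is 85.7% of the list and the whole list, against 42.3% and 61.7% of all tested features. Under quantile normalization 6 and 8 fell (42.9% and 57.1%), against 11.6% and 13.0% of all. Cdkn2c and Cdkn2d, inhibitors of CDK4 and CDK6, fell in both (adjusted p = 4.52e-06 and 5.21e-06, 4.52e-06 and 5.21e-06). Cdk4 and Ccnd2, which the list also holds as the partners that release the brake, were the 2 genes lower in KO than in WT LSCs (adjusted p = 0.00138 and 0.0066). The summed share of the 14 genes in all RPKM was 0.187% to 0.243% in LSK, 0.00980% to 0.0370% in WT LSC, and 0 of 14 were above the lowest value in any KO LSC library.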
